A study of Mus musculus with 4 samples.

Results

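The metallothioneins Mt1, Mt2 and Mt3 were read in single cells of the injured and uninjured mouse spinal cord. The members were chosen by name and not by any measured value, and all 3 were found among the 32287 gene features of both count matrices. Levels were read in 879 injured and 4159 uninjured cells, across classes of cells named from marker genes. The cells came from Cx30-tdTomato mice, in which a tamoxifen-dependent Cre under the connexin gene Cx30 (Gjb6) switches on tdTomato, mainly in astrocytes. Per the study's methods the mice entered it at 8 to 12 weeks of age, and the cells of a condition came, by the series' design text, from 1 to 2 mice of each sex. Mice of both conditions received a pool of adeno-associated viruses carrying candidate enhancers in the blood, so that every cell came from an animal given virus and tamoxifen. The injured group had a contusion of the thoracic cord with 3 days of survival, and segments of 5 mm around the lesion, or from the matching level of uninjured mice, were digested and sorted for tdTomato. Surgery, its anaesthesia and the drugs given around it belong to the injured group alone. By the study's methods, mice were also anaesthetised for intravenous injection, which both conditions received. No sham operation is named in the sources used here, so that the surgery with its drugs and the injury itself cannot be told apart. Animals were pooled into 1 gene expression library per condition, which leaves no replicates. Intervals below are 95% intervals of the UMI or cell counts, they do not cover differences between animals or preparations, and no test between conditions was possible.

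Metallothioneins are small, cysteine-rich proteins that bind zinc and copper and scavenge reactive oxygen species. Mt1 and Mt2 are made in many tissues and are induced by metals through the zinc-sensing factor MTF1, which binds short metal response elements in their promoters, and by glucocorticoids and inflammatory cytokines. Mt3 is the form enriched in the nervous system, was first described as a factor that limits neurite growth, and is known for weak or no response to metals. In the central nervous system astrocytes and ependymal cells are known as main sources of these proteins.

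The 3 genes lie side by side on the plus strand of chromosome 8 (GRCm38, GENCODE M21). Mt3 (ENSMUSG00000031760) spans chr8:94152607-94154146, Mt2 (ENSMUSG00000031762) spans chr8:94172664-94173568 and Mt1 (ENSMUSG00000031765) spans chr8:94179082-94180327. Each is a protein-coding gene with at most 3 exons in any annotated transcript, and Mt1 begins 5513 bases past the end of Mt2. A further gene of this cluster, Mt4, was not among the genes studied here. The longest exact stretch shared by transcripts of 2 members was 27 bases (Mt1 and Mt3), and no stretch of 50 bases was shared with the transcripts of another annotated gene. The sequences just upstream of the annotated start sites are shown because MTF1 is known to act through elements in promoters. They were taken from RefSeq (GRCm38.p6), end before the earlier of the RefSeq and GENCODE starts, and are written 5′ to 3′ with each match to the metal response core in capitals.
Mt1, chr8:94178839-94179081, 243 bases: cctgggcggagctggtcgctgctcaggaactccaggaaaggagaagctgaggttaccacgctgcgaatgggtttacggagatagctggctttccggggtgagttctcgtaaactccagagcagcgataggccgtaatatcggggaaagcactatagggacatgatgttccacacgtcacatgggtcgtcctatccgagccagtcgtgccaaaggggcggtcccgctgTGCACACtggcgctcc
Mt2, chr8:94172368-94172617, 250 bases: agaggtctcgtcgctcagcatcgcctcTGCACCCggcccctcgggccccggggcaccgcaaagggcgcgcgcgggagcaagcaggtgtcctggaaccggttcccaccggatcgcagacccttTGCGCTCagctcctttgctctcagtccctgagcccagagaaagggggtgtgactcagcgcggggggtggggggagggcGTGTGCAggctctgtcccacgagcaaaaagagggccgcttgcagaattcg
Mt3, chr8:94152357-94152606, 250 bases: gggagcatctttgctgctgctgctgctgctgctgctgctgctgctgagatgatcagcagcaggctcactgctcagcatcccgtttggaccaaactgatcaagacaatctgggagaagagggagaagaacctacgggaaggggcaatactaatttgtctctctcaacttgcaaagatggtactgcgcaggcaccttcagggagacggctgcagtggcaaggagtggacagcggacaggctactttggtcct

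The core was searched as TGCACNC and TGCGCNC on both strands of windows of 300 bases, from 250 before to 50 after each RefSeq start. The Mt1 window held 3 matches, the Mt2 window 4 and the Mt3 window 1. Of the 32851 promoter windows of the same length, 25.7% held at least 1 match, 1.97% at least 3 and 0.517% at least 4. In the printed stretches, Mt1 held 1 match, Mt2 held 3 and Mt3 held none, since the only match of Mt3 lies past its start. The other matches of Mt1, 2 and 20 bases past its RefSeq start, and of Mt2, 4 bases past, also fall outside the printed stretches. The AP-1 letters TGANTCA were found once, in Mt2, as TGACTCA beginning 79 bases before the RefSeq start, and they overlap the only match to the antioxidant element TGACNNNGC in the 3 windows (TGACTCAGC). These letters stood in 7.81% and 12.4% of all windows. No window of the 3 held TTCNNNGAA, the STAT letters, which 8.30% of all windows held. A GC box (GGGCGG) was matched 3 times in Mt1 and in neither of the other two, against 35.7% of all windows. A match is a description of letters and not of a bound site. The windows were placed by annotated starts, and where transcription begins was not measured. Bases more than 50 past a RefSeq start were not searched, so the counts do not rank the promoters by their number of elements.

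The kept cells held 8499672 gene UMIs in the injured and 15543460 in the uninjured library, with medians of 6816 and 3343 per cell. Of the 14 clusters, 12 were named in 7 classes by their markers, with the metallothioneins left out of clustering. By Xist and Y-linked genes, 250 injured cells scored female and 315 male, against 2 and 2770 in the uninjured library, although the study describes both sexes in each condition. Nearly every uninjured cell that could be scored was thus male, so that sex and condition are partly confounded, and male-only values are given where they move a result. Injured cells carried more ribosomal protein transcripts in each class that was compared, and in astrocyte-like cells these were 4.77% of UMIs against 1.06%. The mitochondrial share there was 8.86% against 6.08%, and the part of either in the results was not tested. The libraries shared 7 barcode sequences.

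All 3 metallothioneins were about 4 times as high in injured as in uninjured astrocyte-like cells. Levels are given as UMIs of the gene per 1000000 gene UMIs summed over the cells of a class (CPM), in 381 injured and 3023 uninjured cells. Mt1 was at 8593 CPM (8466 to 8721) after injury and at 2130.25 CPM (2103 to 2158) without it. It took 0.859% of all gene UMIs of the injured astrocyte-like cells. The neural form Mt3 was at 5090.27 CPM (4993 to 5189) against 1212 CPM (1191 to 1233). Mt2 was the lowest of the 3, at 1241 CPM (1193 to 1290) against 275 CPM (266 to 285). The log2 ratio of injured over uninjured, on the log2(CPM + 1) scale, was 2.01 for Mt1, 2.17 for Mt2 and 2.07 for Mt3. These are fold ratios of 4.03 (3.96 to 4.11), 4.50 (4.27 to 4.75) and 4.20 (4.09 to 4.31). All 3 genes passed 2-fold, as did 12% of the 9878 genes at 10 CPM or more in either condition, while 6.83% were at least 2-fold lower. Only 3.40% of these genes had a ratio at or above that of Mt1, 2.93% at or above that of Mt2 and 3.19% at or above that of Mt3, and the median log2 ratio of all of them was 0.02. For comparison, Gfap, the intermediate filament of reactive astrocytes, had a log2 ratio of 5.42, the water channel gene Aqp4 one of 0.75, and the glutamate transporter gene Slc1a2 and the glycolytic gene Aldoc ones of -0.34 and -0.60. In male cells alone the log2 ratios were 1.88 for Mt1, 1.92 for Mt2 and 1.74 for Mt3. Injured cells that scored female or male were deeper than the class, with medians of 6613.5 and 6724.5 gene UMIs against 3692. Both lay below the class in each of the 3 genes, with Mt1 at 6608 and 7749 CPM. The part of depth in the male values was not tested. The ratios of the class also depend on which injured clusters carry its name. With a finer clustering that left 198 injured cells in the class they were 1.29, 1.39 and 1.45, and without the cell filter, which left 50, they were 0.21, 0.61 and 0.77.

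**Figure D1:**
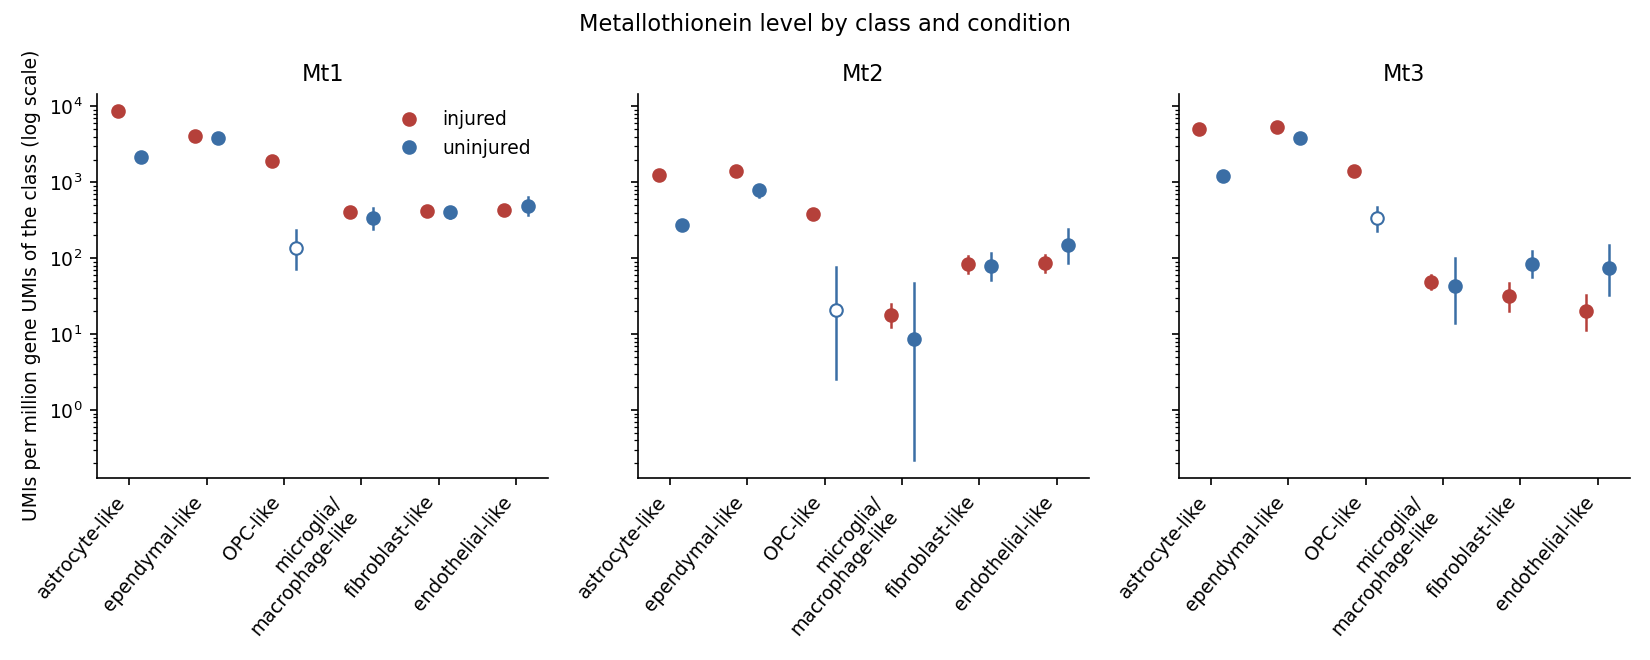
Level of Mt1, Mt2 and Mt3 (CPM, log axis) in 6 classes of injured (red) and uninjured (blue) cells. Points are sums over a class, lines are exact Poisson 95% intervals, drawn no lower than 0.1, and the open point is the class with fewer than 20 cells (14 uninjured OPC-like cells); Mt1 stands at 8593 CPM in injured astrocyte-like cells and at 342 to 491 CPM in the microglial, fibroblast and endothelial classes of either condition.

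Most injured astrocyte-like cells lay in 1 cluster that held few uninjured cells. Cluster 1, whose leading genes include Tgm1, Lcn2 and Gfap, took in 303 injured but 15 uninjured cells, so the comparison of the class is largely a comparison of this cluster with the uninjured clusters. Its injured cells were at 9343 CPM of Mt1, 1342 of Mt2 and 5468 of Mt3. The 15 uninjured cells of the same cluster were at 3556 CPM of Mt1 and 1818 of Mt3. Cluster 4, of shallow cells led by mitochondrial genes, held 59 injured and 608 uninjured cells, and 44.0% of the UMIs of its injured cells were mitochondrial, against 11.4% in the uninjured. There Mt1 was at 947 CPM (777 to 1142) after injury and 919 CPM (869 to 972) without it, and these intervals overlap. Mitochondrial UMIs count in the total behind these levels, so their larger share lowers each injured level of cluster 4. The part of this in the overlap, and in the comparison with cluster 1 below, was not tested. In the same cells Mt3 was at 1251 CPM (1055 to 1472) against 520 CPM (482 to 559.6), Mt2 at 304 CPM against 161 CPM, and Gfap at 1138 CPM against 33.6 CPM. Among the injured cells, cluster 1 was 9.87 times (8.18 to 12.03) as high as cluster 4 in Mt1, but 4.42 times in Mt2 and 4.37 times in Mt3. The remaining injured astrocyte-like cells lay in 3 clusters that hold most uninjured cells. The 10 of cluster 6 were at 4606 CPM of Mt1 (3989.8 to 5291) and the 5 of cluster 7 at 1904 CPM (1463 to 2436). The 4 of cluster 11 were at 619 CPM (267 to 1219.7).

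The uninjured astrocyte-like clusters differed among themselves. Cluster 6, led by the claudin gene Cldn10 and the cortisone-reducing enzyme gene Hsd11b1, had the highest level of the large named clusters, with 2888 CPM of Mt1, 352 of Mt2 and 1668 of Mt3 in 1092 cells. Cluster 7 was at 1978 CPM of Mt1 in 627 cells. Cluster 11, led by the glutamate receptor gene Gria1 and Shisa9, was at 1543 CPM of Mt1, 208 of Mt2 and 848 of Mt3 in 681 cells. The order of clusters 6, 7, 11 and 4 was the same for all 3 genes, and no intervals of Mt1 overlap between them. An unnamed cluster of 761 uninjured cells, with astrocyte markers but neurofilament genes in the lead, was at 2932 CPM of Mt1, where its interval overlaps that of cluster 6, and at 1782 CPM of Mt3. The 6 injured cells of that unnamed cluster were at 5253 CPM of Mt1 (4404 to 6217). For Mt1, injured cells thus lay above the uninjured cells of the same cluster in clusters 1 and 6 and in this unnamed one. The intervals overlapped in cluster 7 and, with mitochondrial UMIs in the total, in cluster 4. The injured cells of cluster 11 lay lower.

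Injured astrocyte-like cells were also more unequal. The per-cell Mt1 level had a 10th percentile of 628, a median of 5814 and a 90th percentile of 22439 CPM, against 379, 1867 and 4044 in uninjured cells. Mt3 had a 10th percentile of 531, a median of 3976 and a 90th percentile of 13566, against 0, 1031 and 2418. For Mt1 the 90th percentiles thus differed by a larger factor than the 10th percentiles. The single highest cell gave 2.81% of all Mt1 UMIs of the injured class. With each cell thinned to 1000 gene UMIs, and 32 injured and 67 uninjured shallower cells left out, the 3 genes together had a median of 11 UMIs per injured cell against 3 per uninjured cell. More than 10 UMIs were found in 181 of 349 injured cells (51.9%) and in 61 of 2956 uninjured cells (2.06%).

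**Figure D2:**
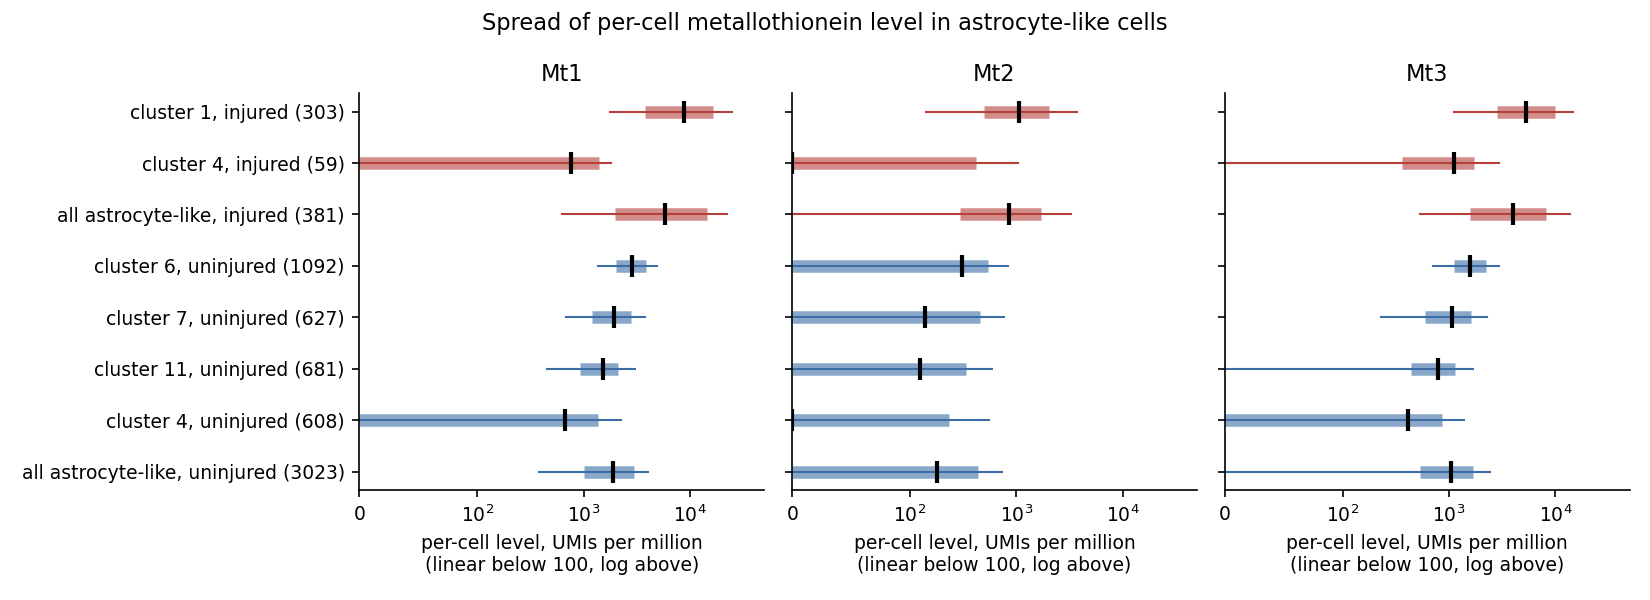
Per-cell level of each metallothionein (CPM; axis linear below 100 and logarithmic above) in clusters of astrocyte-like cells and in the whole class, with cell numbers in brackets. Thin lines run from the 10th to the 90th percentile, thick bars from the 25th to the 75th, and black marks are medians; the injured cluster 1 has a median of 8699 for Mt1, and cluster 4 has medians of 762 (injured) and 665 (uninjured).

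A metallothionein UMI was found in most astrocyte-like cells of either condition. Mt1 was detected in 93.4% (90.5 to 95.7) of injured and 92.3% (91.3 to 93.2) of uninjured cells, with median depths of 3692 and 3236 UMIs. For Mt3 the shares were 93.4% and 86.9%, and for Mt2 81.1% (76.8 to 84.9) and 53.9% (52.1 to 55.7). After thinning they were 89.7% against 79.1% for Mt1, 57.9% against 22.2% for Mt2 and 88.3% against 63.9% for Mt3. The shares of Mt1 thus lay close before thinning, while those of Mt2 lay far apart both before and after it. In microglia and macrophage-like cells of the injured library, which carried at most 0.766% of the astrocyte-like level of Gfap, Aqp4, Slc1a2 and Aldoc, the thinned shares were 25.6% for Mt1, 2.48% for Mt2 and 8.26% for Mt3.

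The 3 genes varied together from cell to cell in the injured astrocyte-like cells. Across 349 thinned cells Spearman's rho was 0.74 between Mt1 and Mt3, 0.58 between Mt1 and Mt2 and 0.52 between Mt2 and Mt3, and it was 0.45 between Mt1 and Gfap. Across 2956 thinned uninjured cells it was 0.29 for Mt1 and Mt3 and 0.12 for Mt1 and Mt2, below the 0.38 of Mt1 and Aldoc. In ependymal-like cells rho between Mt1 and Mt3 was 0.53 in 143 injured and 0.61 in 31 uninjured thinned cells. The injured astrocyte-like cells join clusters 1 and 4, which differ in level, and the part of this in their rho was not tested. All these cells share 1 library per condition. The uninjured astrocyte-like counts are low (means of 2.11 UMIs for Mt1 and 0.264 for Mt2), so the values describe these cells only.

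Ependymal-like cells, the ciliated lining of the central canal (144 injured and 31 uninjured cells), already carried high levels without injury. In the uninjured library they were at 3867 CPM of Mt1 (3567 to 4186), 782 CPM of Mt2 (651 to 933) and 3874 CPM of Mt3 (3573 to 4193). These are 182%, 284% and 320% of the levels in uninjured astrocyte-like cells, which makes this class the highest of the named classes of the uninjured library for each of the 3 genes. After injury Mt1 was at 4067 CPM (3972 to 4165), a log2 ratio of 0.07 with an interval from -0.05 to 0.19. Mt2 was at 1415 CPM, with a log2 ratio of 0.85 (0.59 to 1.13), and Mt3 at 5373 CPM, with 0.47 (0.35 to 0.59). None of the 3 passed 2-fold with all kept cells, and 6.29% of the 2450 genes at 100 CPM or more did so upwards and 8.73% downwards. The median log2 ratio of these genes was -0.17, and 35.1% of them had a ratio at or above that of Mt1. The log2 ratio of astrocyte-like cells was above that of ependymal-like cells by 1.94 (1.82 to 2.06) for Mt1, 1.32 (1.04 to 1.59) for Mt2 and 1.60 (1.47 to 1.72) for Mt3. After injury the order of the classes therefore turned for Mt1, which was 2.11 times (2.05 to 2.17) as high in astrocyte-like as in ependymal-like cells, but not for Mt2 (0.877) and Mt3 (0.947). For Mt3 the astrocyte-like cluster 1 alone, at 5468 CPM (5362 to 5576), overlapped the interval of injured ependymal-like cells (5263 to 5485). The call on Mt2 depends on which cells carry the class name. With clustering limited to cells of at least 1000 UMIs, the log2 ratios were 0.22 for Mt1, 1.02 for Mt2, which then passed 2-fold, and 0.71 for Mt3. That clustering named 143 injured and 36 uninjured cells ependymal-like. In the main class 1 injured cell and 0 uninjured cells were below 1000 UMIs. Gfap was at 786 CPM in injured ependymal-like cells, and no UMI of it was found among the 158504 UMIs of the uninjured ones (interval up to 23.3 CPM), while the astrocyte marker sums of the class were 1649 CPM after injury and 2221 CPM without it. The sum of its own 7 ependymal markers was 2294 CPM against 5224 CPM, and the part of this difference in the ratios was not tested.

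**Figure D3:**
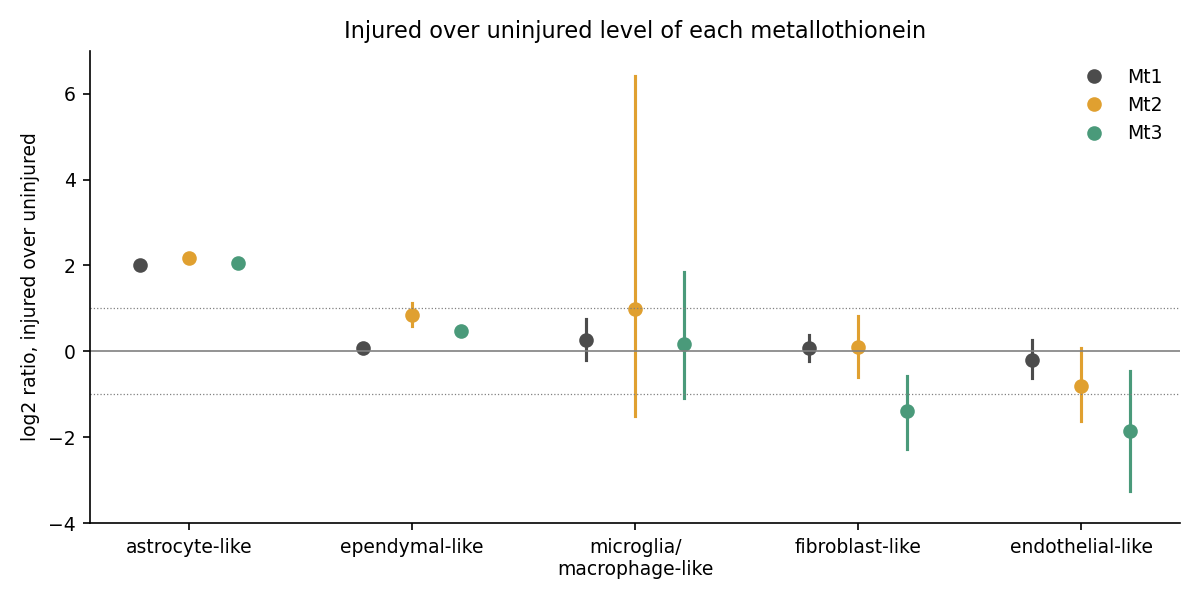
Log2 ratio of injured over uninjured level, on the log2(CPM + 1) scale, for Mt1 (grey), Mt2 (yellow) and Mt3 (green) in the 5 classes with at least 20 cells in each condition. Lines are exact conditional 95% intervals of counting, and dotted lines mark 2-fold; the 3 genes lie at 2.01 to 2.17 in astrocyte-like cells, and the interval of Mt1 spans 0 in the other classes.

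The makeup of the metallothionein UMIs differed between classes. In astrocyte-like cells Mt1 gave 57.6% (57.0 to 58.1) of the UMIs of the 3 genes after injury and 58.9% (58.4 to 59.4) without it. Mt3 gave 34.1% and 33.5%, and Mt2 gave 8.31% and 7.62%. In the mitochondria-rich cluster 4 of this class the conditions differed, with 37.8% Mt1 (32.2 to 43.7) and 50% Mt3 after injury against 57.5% and 32.5% without it. In ependymal-like cells Mt3 had the largest part after injury, with 49.5% (48.8 to 50.2) against 37.5% for Mt1 and 13.0% for Mt2. The uninjured ependymal-like cells had equal parts of Mt1 (45.4%) and Mt3 (45.4%) and 9.18% of Mt2. Microglia and macrophage-like, fibroblast-like and endothelial-like cells had mostly Mt1 UMIs, at 68.4% to 87.0% in the 2 conditions, and 15.1% or less of Mt3.

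**Figure D4:**
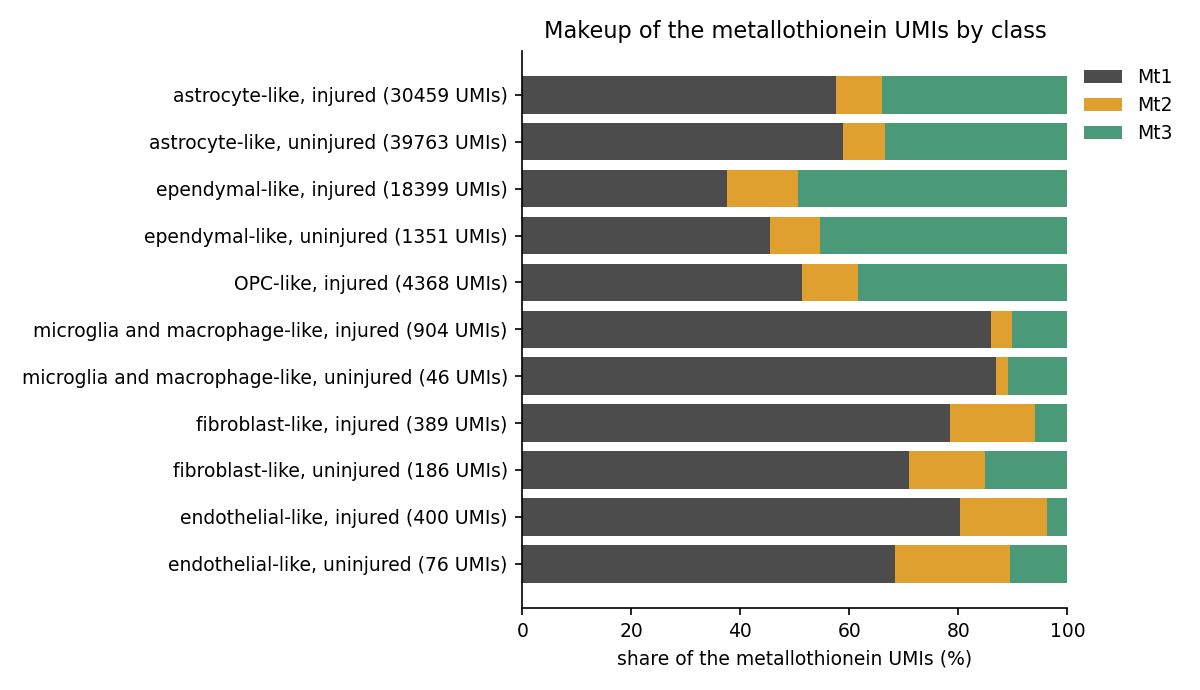
Share (%) of the UMIs of Mt1, Mt2 and Mt3 in each class and condition with at least 20 cells, with the number of metallothionein UMIs in brackets. Mt3 takes 33.5% to 49.5% in the astrocyte-like and ependymal-like rows and 3.75% to 15.1% in the microglial, fibroblast and endothelial rows.

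Immune, stromal and vascular classes carried Mt1 at a lower level than astrocyte-like cells. Injured microglia and macrophage-like cells (128) were at 411 CPM of Mt1 (383 to 441) and the uninjured ones (31) at 342 CPM (244 to 466). Fibroblast-like cells were at 423 CPM (43 injured cells) and 402 CPM (95 uninjured cells), and endothelial-like cells at 429 CPM (70) and 491 CPM (26). The log2 ratios of Mt1 were 0.27, 0.07 and -0.19, and each interval spans 0. In these classes 10.5%, 14% and 7.06% of the genes at 100 CPM or more were at least 2-fold higher after injury, and 25.4%, 12.5% and 8.07% at least 2-fold lower. The uninjured fibroblast-like cells include 48 cells of a cluster led by Apod and Dcn that held no injured cell. As the mean of per-cell CPM the log2 ratio of Mt1 in fibroblast-like cells was 0.70, and leaving out the 5% of cells with the highest doublet scores gave -0.28, and male cells alone gave 0.38 in endothelial-like cells.

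RNA released from astrocytes can enter droplets of other cells, so the metallothioneins were set beside astrocyte genes. In injured microglia and macrophage-like cells Mt1 was at 4.79% (4.45 to 5.14) of its astrocyte-like level, while Gfap was at 0.766%, Aldoc at 0.657%, Slc1a2 at 0.257% and Aqp4 at 0.136% of theirs. Mt3 was at 0.956% (0.770 to 1.17) and Mt2 at 1.45% (1.00 to 2.03). A single cell held 40 of the 92 UMIs of Mt3, and without it Mt3 was at 0.546% (0.407 to 0.716). The interval of Mt3 overlaps those of Gfap and Aldoc with and without that cell, and Mt1 lay above all 4 astrocyte genes. In injured endothelial-like cells Mt1 was at 4.99% and Mt2 at 6.89% of the astrocyte-like level, while Mt3 was at 0.393% and Gfap at 0.387%. Injured fibroblast-like cells had 4.92% for Mt1, 6.82% for Mt2 and 0.626% for Mt3, beside 0.449% to 0.935% for the 4 astrocyte genes. In the uninjured library Mt3 was at 7.03% of the astrocyte-like level in fibroblast-like and 6.23% in endothelial-like cells, and Slc1a2 at 6.29% and 3.61%. The log2 ratio of Mt3 between conditions was -1.39 in fibroblast-like cells (23 and 28 UMIs) and -1.86 in endothelial-like cells (15 and 8 UMIs), and that of Slc1a2 was -3.05 in the same fibroblast-like cells and -5.54 (-9.14 to -3.93, 2 injured UMIs) in the endothelial-like cells. Of the 8 uninjured endothelial UMIs of Mt3, 6 lay in 1 cell. Without that cell the level of Mt3 was 1.65% (0.1997 to 5.96) of the astrocyte-like level and the log2 ratio between conditions was 0.0025. The part of free RNA in the values of Mt3 was not tested.

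**Figure D5:**
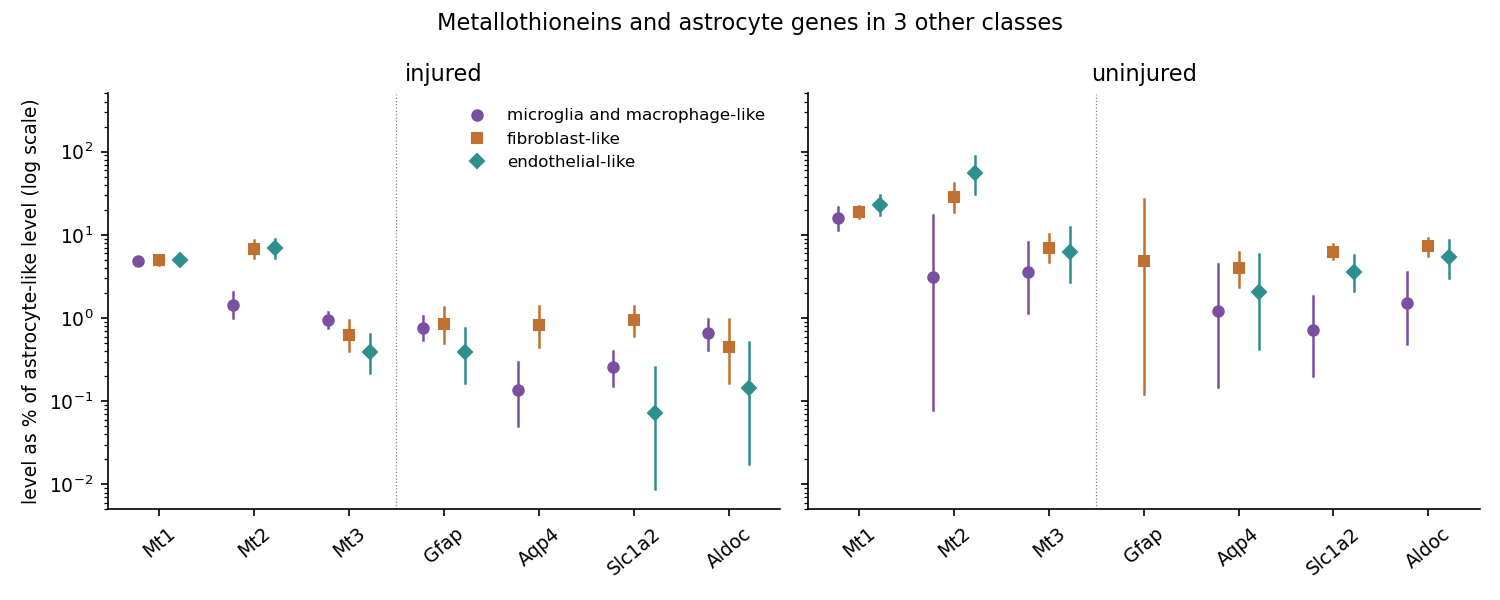
Level of the metallothioneins and of 4 astrocyte genes in 3 other classes as a percentage of the level in astrocyte-like cells of the same library (log axis), for injured and uninjured cells. Points are ratios of summed levels, lines are exact conditional 95% intervals drawn no lower than 0.005, and genes without a UMI are not drawn; after injury Mt1 lies at 4.79% to 4.99% in all 3 classes and the astrocyte genes lie below 1%.

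Mt2 was scarce beside Mt1 in microglia and macrophage-like cells after injury. Their injured cells held 778 UMIs of Mt1 and 34 of Mt2, or 22.9 UMIs of Mt1 per UMI of Mt2 (16.2 to 33.3). Injured astrocyte-like cells held 6.93 (6.64 to 7.22), ependymal-like cells 2.87 (2.74 to 3.01), and fibroblast-like and endothelial-like cells 5 (3.79 to 6.70) and 5.02 (3.82 to 6.67). None of these intervals overlaps that of microglia and macrophage-like cells. The 31 uninjured cells of that class held 40 UMIs of Mt1 and 1 of Mt2, and the interval of their ratio, from 6.78 to 1619, does not separate them from astrocyte-like cells.

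The OPC-like class, of oligodendrocyte precursors, was mixed after injury. Its 70 injured cells were at 1891 CPM of Mt1, but the per-cell median was 639 and the 90th percentile 16303 CPM. Split by Pdgfra, the receptor gene that marks these precursors, the 45 cells with a Pdgfra UMI were at 549 CPM of Mt1 (504 to 597), 104 CPM of Mt2 and 944 CPM of Mt3, with Gfap at 209 CPM and Aqp4 at 4.96 CPM. The 25 cells without one were at 9548 CPM of Mt1, 1954 CPM of Mt2 and 4123 CPM of Mt3, with Gfap at 2633 CPM and Aqp4 at 980 CPM. In injured astrocyte-like cells Mt1 was at 8593 CPM, Mt2 at 1241 CPM, Gfap at 2759.5 CPM and Aqp4 at 2336 CPM. A single cell gave 30.2% of the Mt1 UMIs of the cells without a Pdgfra UMI. The cells without a Pdgfra UMI were also shallower, with a median of 2845 gene UMIs against 20962, and the part of depth in this split was not tested. The 14 uninjured cells of the class were at 137 CPM of Mt1 (73.0 to 234), 21.1 CPM of Mt2 (2 UMIs) and 337 CPM of Mt3 (231 to 476). In cells with a Pdgfra UMI, Mt3 was therefore above Mt1 in both conditions, at 944 against 549 CPM and at 334 against 140.1 CPM. The uninjured values rest on 31 and 13 UMIs in 13 cells, and their intervals overlap (227 to 474 and 74.6 to 240 CPM). This split was chosen after the values were seen. The 13 injured mural-like cells held 7 UMIs of Mt1, 2 of Mt3 and none of Mt2, whose interval reaches 43.5 CPM.

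Ordered by Mt1 among the named classes, injured astrocyte-like cells came first, followed by ependymal-like cells of both conditions, which did not differ beyond their intervals. Next came uninjured astrocyte-like cells (2130.25 CPM) and the mixed injured OPC-like cells (1891 CPM, or 549 CPM in cells with a Pdgfra UMI), and then the endothelial, fibroblast and microglial classes between 342 and 491 CPM, whose intervals overlap. The 936 unnamed uninjured cells, left out of this order, were at 2779 CPM. Uninjured OPC-like cells (137 CPM) and injured mural-like cells (82.5 CPM) came last, each with fewer than 20 cells. For Mt3 the first place went to injured ependymal-like cells (5373 CPM), ahead of injured astrocyte-like cells (5090.27 CPM) with intervals that do not meet. For Mt2 the same 2 classes led, at 1415 and 1241 CPM. Among injured astrocyte-like cells the 72 that scored female were at 6608 CPM of Mt1 and the 118 that scored male at 7749 CPM, while Mt3 was at 4539 and 3971 CPM and Mt2 at 1089 and 1042 CPM.

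Other genes of metal handling were read from lists in astrocyte-like cells. Of 41 listed genes 32 reached 10 CPM in either condition, of which 8 (25%) were at least 2-fold higher after injury and none was 2-fold lower, beside 12% and 6.83% of all genes. The factor gene Mtf1 was at 18.1 and 15.01 CPM, a log2 ratio of 0.26 with a fold interval from 0.822 to 1.73. The zinc exporter gene Slc30a1, a known target of MTF1, was at 16.2 CPM after injury and 22.2 CPM without it (log2 ratio -0.43, fold interval 0.490 to 1.05). None of the 7 zinc exporter genes at the floor passed 2-fold, and their median log2 ratio was 0.06. Of 10 zinc importer genes at the floor, 3 were higher. Slc39a1 was at 114 against 26.0 CPM (log2 ratio 2.09) and Slc39a14, a carrier of zinc and iron, at 112 against 26.1 CPM (2.06), while Slc39a6 was at 33.8 against 8.73 CPM (1.84). The astrocyte-enriched importer gene Slc39a12, the most abundant of the list, was at 488 against 949 CPM, with a log2 ratio of -0.96. Of 8 copper genes, 3 were higher: the ferroxidase gene Cp (38.2 against 4.46 CPM, log2 ratio 2.85), the copper chaperone gene Atox1 (247 against 80.1 CPM, 1.62) and Cox17, which delivers copper to cytochrome oxidase (141 against 63.5 CPM, 1.14). Of 6 iron genes, the ferritin chains Fth1 (6612 against 964 CPM, 2.78) and Ftl1 (764 against 109 CPM, 2.80) were higher. In ependymal-like cells Fth1 was at 4072 CPM after injury and 3893 CPM without it.

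The genes of 3 inputs known to act on Mt1 and Mt2 moved unequally in astrocyte-like cells. Of 8 genes of gp130 and STAT3 signalling, 4 were at least 2-fold higher, namely the oncostatin M receptor gene Osmr (45.1 against 0.546 CPM), Il6ra (25 against 2 UMIs, a fold ratio of 67.3 with an interval from 16.8 to 586), the feedback inhibitor gene Socs3 (20.6 against 1.18 CPM) and Stat3 (108 against 38.8 CPM, log2 ratio 1.45). Of 8 genes of the Nrf2 response, with Nfe2l2 itself among them, 5 were higher, namely heme oxygenase Hmox1 (200 against 9.64 CPM, log2 ratio 4.24), Srxn1 (58.8 against 6.73 CPM, 2.95), Txnrd1 (92.6 against 23.5 CPM, 1.94), Nqo1 (1.38) and Gclm (1.03). Of 9 genes of the glucocorticoid response at the floor, Fkbp5, a chaperone of the receptor, was higher (25.5 against 1.55 CPM, 3.38) and Hsd11b1, which regenerates the hormone, was lower (31.8 against 268 CPM, log2 ratio -3.03). The receptor gene Nr3c1 had a log2 ratio of -0.91 and the target Tsc22d3 one of -0.91. Shares of 4 in 8, 5 in 8 and 1 in 9 stand beside the 12% of all genes, and these lists were chosen with earlier results of these data known.

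Across 11 groups of class and condition with at least 20 cells, the pattern of Mt1 was closest to that of Mt3 (Pearson's r = 0.97 of log2(CPM + 1), among 8664 genes). It was followed by Celsr2, a planar polarity cadherin (0.97), the peroxidase gene Prdx6 (0.96), the chaperone gene Clu (0.95) and Dab1 (0.94). Mt3 was closest to Mt1 and then to Celsr2, Pax6, Brinp1 and Nkain2 (0.96 for each of these 4). Mt2 was closest to Fzd3 (0.97), Fez1, Fitm2, Nrbp2 and Cfap36, and Mt1 took place 53 in its order (0.90). By Spearman's rho none of the 5 genes nearest to Mt1 or Mt3 and 1 of the 5 nearest to Mt2 came up again among the first 5, while rho between Mt1 and Mt2 was 0.97. The groups share 2 libraries and differ in depth, so the values describe these groups only.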

How the data were processed

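Sorted cells were processed by the authors with the Chromium 3′ v3.1 chemistry. The authors deposited 1 matrix of UMI counts per condition, not normalised, with cells called before deposit. Per the file headers Cell Ranger 7.1.0 was used, whereas the submitters' processing notes name 8.0.1 and the build mm10. Each matrix also held 23 enhancer barcode features, not used here. Barcodes were kept if their gene UMIs lay above 500 and below 50000, which removed 40 injured barcodes. Counts were scaled to 10000 per cell, log transformed and clustered with 2000 variable genes, 15 components, 15 neighbours and Leiden resolution 0.5 (scanpy 1.11.5, igraph 0.11.9), without the metallothioneins, tdTomato-WPRE and EGFP. Each cluster was named for its best-scoring marker list (mean score over 0.2). This required 3 markers detected in 10% of the cells, and a cluster stayed unnamed where another list had more genes in its top 10 by fold, counted without each gene's highest cell. The exclusion of that cell was set after clusters were seen. Clusters 5 and 9, with astrocyte scores but neuron genes in the lead, stayed unnamed. Depth was 8499672 and 15543460 gene UMIs.

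UMI sums have exact Poisson, ratios exact conditional binomial and shares exact Clopper-Pearson 95% intervals, which cover counting error only. A pseudocount of 1 CPM was used for log2 ratios, and classes with fewer than 20 cells in a condition were given as levels only. The script was tested on Poisson counts simulated from astrocyte-like gene levels, set no lower than 10 CPM. At the depths of astrocyte-like and ependymal-like cells, 100% and 94.5% of 200 changed genes were recovered. Of the unchanged genes 0.103% and 17.0% passed 2-fold. The 100 CPM floor of the ependymal-like counts was not applied in this simulation. Doublets were not removed, since Scrublet marked only 2 of 5038 cells (0.0397%), and whether it missed doublets was not tested. Its scores served only to leave out the highest 5% of cells as an alternative, which carries the same limit. The named genes are the metallothioneins, list genes at 10 CPM or more that passed 2-fold with Mtf1 and Slc30a1 in any case, the 5 genes most like each member, 4 astrocyte genes and class markers. Slc39a12, Nr3c1, Tsc22d3 and the split by Pdgfra were added after their values were seen. The members and lists were chosen with earlier results of these data known. Promoter windows came from RefSeq (GRCm38.p6), where all 3 members matched, and positions from GENCODE M21.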

Additional observations from a re-analysis of the deposited data

Results flagged for a closer look

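Mt3 had ratios of opposite direction in different classes, and this difference between classes was not tested. The log2 ratio of injured over uninjured was 2.07 in astrocyte-like and 0.47 in ependymal-like cells, and it was -1.39 in fibroblast-like and -1.86 in endothelial-like cells. The negative values rest on 23 and 28 UMIs in fibroblast-like and on 15 and 8 UMIs in endothelial-like cells, and 6 of these last 8 lay in 1 cell. Without the cell richest in Mt3 in each condition the values were -1.64 in fibroblast-like and -0.18 in endothelial-like cells. As the mean of per-cell CPM they were -0.33 and -0.37, and in male cells alone the endothelial value was -0.12. Slc1a2 and Aldoc, which astrocytes express, had log2 ratios of -3.05 and -4.46 in the same fibroblast-like cells and of -5.54 (-9.14 to -3.93) and -5.37 (-8.99 to -3.73) in the endothelial-like cells, where each had 2 injured UMIs.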

How the results depend on the processing

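No paired analysis was possible because there was 1 gene expression library for each condition. No alternative reversed a direction among the called ratios, apart from Mt3 in endothelial-like cells. There, leaving out only the uninjured cell richest in Mt3 moved the log2 ratio from -1.86 to 0.0025. In astrocyte-like cells, 15 alternatives gave log2 ratios of 0.21 to 2.12 for Mt1, 0.61 to 2.27 for Mt2 and 0.77 to 2.25 for Mt3. The settings that moved them most changed which cells were named. Without the cell filter they were 0.21, 0.61 and 0.77, and 50 injured cells were left in the class, since a cluster of 381 injured cells with OPC genes in the lead stayed unnamed. At Leiden resolution 1.0 they were 1.29, 1.39 and 1.45, with 198 injured cells, since 189 cells led by Lcn2 and Tgm1 stayed unnamed. Counting unnamed clusters with astrocyte scores (chosen after seeing the data), they were 1.39, 1.62 and 1.46 without the filter, and at resolution 1.0 1.86 for Mt1 and 1.87 for Mt3. Smaller moves came from male cells (1.88, 1.92 and 1.74), from counting the unnamed clusters (1.83, 2.02 and 1.86) and from leaving mitochondrial and ribosomal protein genes out of the total (2.12, 2.27 and 2.17). For Mt1 and Mt3 they also came from the mean of per-cell CPM (2.12 and 2.25), the members kept in clustering (1.94 and 1.95) and cluster 4 left out, added after seeing the data (1.97 and 2.02).

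In ependymal-like cells, at least 1000 UMIs per cell gave 0.22 for Mt1, 1.02 for Mt2 (0.85 with all kept cells, so that it passed 2-fold) and 0.71 for Mt3, and the mean of per-cell CPM gave 0.63 for Mt3. Requiring 2 UMIs, the shares of injured astrocyte-like cells were 88.5% for Mt1, 69.3% for Mt2 and 87.7% for Mt3, and of uninjured cells 84.9%, 25.6% and 73.9%. Thinned shares were 89.7%, 57.9% and 88.3% against 79.1%, 22.2% and 63.9%. In the makeup of injured astrocyte-like cells, the mean over cells gave 9.004% Mt2 and 37.5% Mt3, resolution 1.0 gave 7.71% and 36.1%, and male cells gave 31.1% Mt3. In injured ependymal-like cells, the mean over cells gave 14.0% Mt2, and male cells gave 12.3% Mt2 and 51.0% Mt3. At 1.5-fold, 12 metal handling genes were higher instead of 8 and 2 were lower instead of 0. The share of all genes past 1.5-fold is not given here, so these counts have no background beside them. Without the cell richest in the gene in each condition (chosen after seeing the data), the log2 ratio of Mt3 in endothelial-like cells was -0.18 instead of -1.86. With few cells in the uninjured ependymal, microglial and endothelial classes (26 to 31), differences there were limited by counts.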

Other observations

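The 40 injured barcodes with 50000 or more UMIs, which the filter removed, were low in all 3 genes, with 121 CPM of Mt1, 44.9 CPM of Mt2 and 43.7 CPM of Mt3. Their median Mt1 level was 64.1 CPM, and 20.2% of their UMIs were ribosomal protein transcripts.

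The 24 injured and 175 uninjured cells of unnamed cluster 9, led by Syt1, were at 763 CPM (607 to 947) and 1167 CPM (1052 to 1290) of Mt1 and at 577 and 924 CPM of Mt3, which is an order opposite to that of the astrocyte-like class. Mitochondrial UMIs were 29.5% and 29.2% in these cells.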
